A study of Mus musculus with 15 samples.

Results

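Aoc3 and Plin3, a gene of fat and vessel walls and a gene of lipid droplets, are 2 of the 311 genes whose probes could be named on these arrays. They were read as RefSeq accessions NM_009675.1 and NM_025836.1, with 1 probe each among 33012 gene probes. The genes were chosen from measured values: both had passed the test between week 22 and week 10 of age, and Aoc3 also between week 19 and week 10, in opposite directions. Differences between those ages are therefore given here as descriptions without a test. The samples are mammary glands prepared as whole mounts from BALB-neuT mice, 5 at 10 weeks, 2 at 15 weeks, 4 at 19 weeks and 4 at 22 weeks of age, with 1 animal and 1 array each. Every mouse carries the activated rat neu oncogene, under a promoter active in mammary epithelium, so no group shows the ageing of a gland without it. The ages stand for advancing stages of mammary carcinogenesis.

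Aoc3 encodes a copper-dependent amine oxidase of the cell surface, also called vascular adhesion protein or semicarbazide-sensitive amine oxidase. It is abundant in adipocytes and smooth muscle and is also found on vessel endothelium, where it helps leukocytes to adhere. Plin3 encodes a perilipin that moves from the cytosol to newly formed lipid droplets. It is made in many cell types, unlike the perilipin Plin1 of adipocytes. The mammary gland consists of an epithelial tree within a pad of fat, and in the BALB-neuT gland the epithelium expands at the expense of that pad, which is the question the 2 genes were meant to read.

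Whether both genes read fat could not be checked against other fat genes. None of the 21 adipocyte genes listed for this purpose could be given a probe, and neither could any of the 6 brown fat genes or 10 fatty acid synthesis genes. Aoc3 was the only member of 10 amine oxidase genes with a named probe, and Plin3 the only one of 12 lipid droplet genes. Its neighbour and relative Aoc2 was not analysed here. Whether the Aoc3 probe also detects Aoc2 RNA was not tested. In whole glands, fewer cells of a type and less RNA per cell cannot be told apart.

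A set of 3 week 10 arrays stood apart. The hair root sheath keratins Krt25 and Krt27, the 2 named genes of 10 hair and skin genes, had a summed normalized signal between 84.9 and 922 k (k, units of 1000) in week 10 replicates 1, 2 and 4. On the other 12 arrays the sum lay between 0.36 and 2.29 k, and Krt25 was above background on 3 of them, all at week 19. All 3 arrays were read on the first of 2 scan days, as was week 10 replicate 3, which had no such signal. The part of hair or skin RNA in the values below was not tested, so the differences from week 10 over all arrays are given with and without these arrays. Values within a scan day or run keep them.

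Both genes were measured far above background on all 15 arrays. The signal-to-noise ratio ranged from 51.5 to 116 for Aoc3 and from 58.9 to 109 for Plin3, and no spot of either gene carried a quality flag. The SD of the spot was between 0.865% and 1.94% of the signal for Aoc3 and between 0.92% and 1.70% for Plin3. The SD between the 5 week 10 arrays was 42.6% of the mean raw signal for Aoc3 and 30.5% for Plin3. The spread between arrays of an age also holds labelling, hybridisation and the brightness of the array, which cannot be told apart from the animal here.

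Aoc3 was high in the younger glands and lower in the older ones. At week 10 its log2 normalized signal was 19.30, 19.49, 20.45, 19.54 and 20.13 in replicates 1 to 5, and at week 15 it was 20.26 and 20.22. At week 19 it was 18.94, 18.14, 17.12 and 18.76, and at week 22 it was 19.14, 18.82, 17.88 and 17.43. In these normalized values, every week 19 and week 22 array lay below every week 10 and week 15 array. The 2 older ages overlapped with each other, and both week 15 values lay within the range of week 10.

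In order of the means, Aoc3 stood at 20.24 ± 0.03 at week 15 (SD, n = 2), 19.78 ± 0.49 at week 10 (n = 5), 18.32 ± 0.80 at week 22 (n = 4) and 18.24 ± 0.82 at week 19 (n = 4). The neighbouring means of weeks 15 and 10 and those of weeks 22 and 19 differed by less than the spread between animals. Raw signals, before any normalization, ran from 580.3 to 1360 k at week 10, stood at 957 and 1136 k at week 15, and ran from 189 to 384 k at week 19 and from 247 to 641 k at week 22. In raw signal week 22 thus overlapped with week 10, whereas week 19 lay below it. The same held with arrays centred on their medians. There week 22 replicate 1 had 19.48, above the 19.16 to 19.32 of week 10 replicates 1, 2 and 4, while week 19 reached 18.73 at most.

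The brightness rank of the Aoc3 spot on its own array does not depend on the scaling between arrays. It was 266, 225, 40, 213 and 88 among the 33012 probes in week 10 replicates 1 to 5, and 66 and 72 at week 15. At week 19 it was 355, 602, 1122 and 399, and at week 22 it was 302, 385, 706 and 921. By rank, too, every older gland lay below every younger one. Quantile normalization sets each normalized value from this rank, so the ranks are no separate check on the normalized values.

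**Figure D1:**
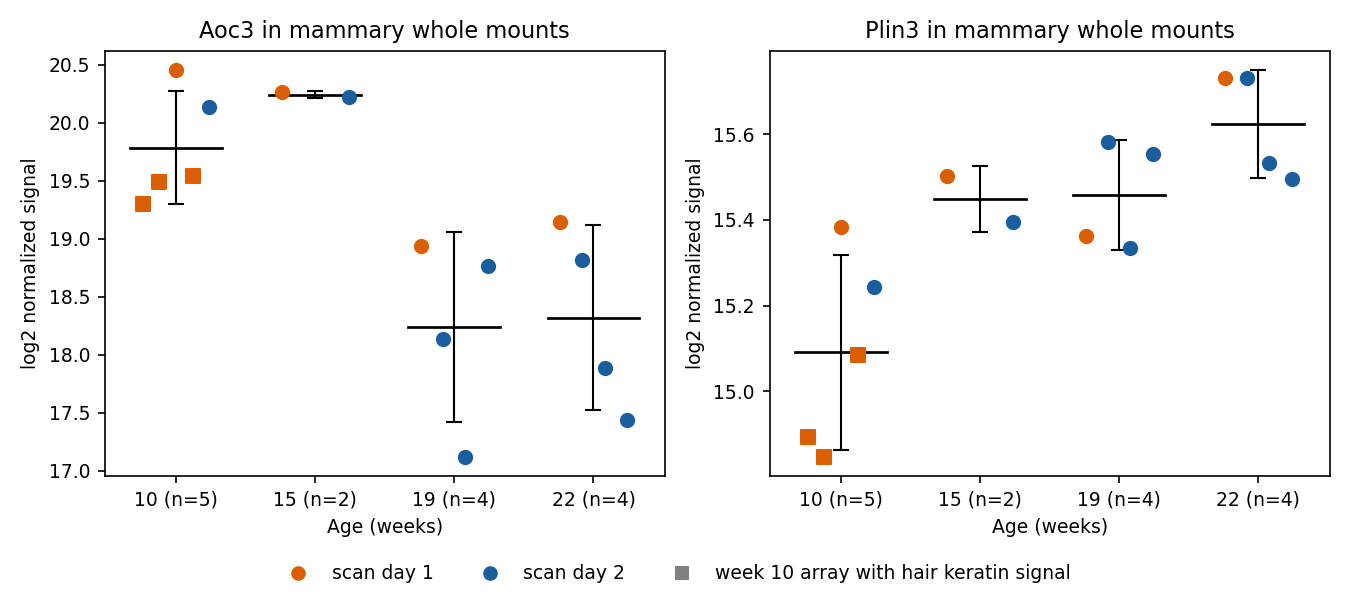
Log2 normalized signal of Aoc3 and Plin3 (vertical axes, each with its own range) against age in weeks, with 1 point per array, the mean as a line and the SD as a bar. Aoc3 lies at 19.30 or above in weeks 10 and 15 and at 19.14 or below in weeks 19 and 22, while Plin3 is lowest on the 3 week 10 arrays with hair keratin signal (squares).

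Against week 10, Aoc3 was 2.91-fold lower at week 19 (log2 difference -1.54 ± 0.42, SE) and 2.76-fold lower at week 22 (-1.46 ± 0.42). These are the differences for which it was chosen, so no test is given. In the same fit 12.5% of the probes passed at week 19 against week 10 and 12% at week 22 against week 10 (limma, adjusted p under 0.05), and as lower 5.24% and 4.18% did. At week 22 the calls were 1623 higher and 872 lower, or 2674 and 500 with arrays centred on their medians. Of all kept probes, 7.7% and 5.24% had every older value below every week 10 value in these 2 comparisons.

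The size of the difference depended on which arrays were compared. Within scan day 1, where week 10 has 4 arrays and each other age 1, Aoc3 differed by -0.76 at week 19 and by -0.55 at week 22. Within scan day 2 it differed by -2.12 and -2.09, against the single week 10 array of that day. Within runs 3 and 4 of array codes (arrays with neighbouring codes in the sample titles) the differences were -1.39 and -2.62 at week 19 and -1.02 and -2.09 at week 22. All of these have the same sign. Of the 4 week 10 arrays of scan day 1, 3 are the hair keratin arrays, while that of scan day 2 has no such signal. Scan day and hair keratin signal therefore cannot be told apart in these values. Runs 3 and 4 both hold hair keratin arrays at week 10.

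The 3 arrays with hair keratin signal were the lowest of week 10 for Aoc3. They had 19.30, 19.49 and 19.54, against 20.45 and 20.13 in the other 2 animals. With them left out, Aoc3 differed from week 10 by -2.05 at week 19 and by -1.97 at week 22. At week 22 the values also fell into a higher and a lower pair, 19.14 and 18.82 in replicates 1 and 2, and 17.88 and 17.43 in replicates 3 and 4. With the lower pair left out, the week 22 difference from week 10 was -0.80 ± 0.45. The lower pair are both of run 4 of array codes, and replicates 1 and 2 are of runs 2 and 3. The lowest week 19 array, replicate 3 at 17.12, is of run 4 too, but so is the highest week 10 array at 20.45. The part of the run in these values was not tested.

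Comparisons that did not enter the choice of the genes could be tested, although they share arrays with those that did. For week 19 against week 15, the 4 week 19 arrays are those on which Aoc3 was chosen as low. Its p-value there leans towards passing and is not independent of the choice. Between week 15 and week 19 Aoc3 fell 4.00-fold (log2 change -2.0 ± 0.54, limma adjusted p = 0.0313), and all 4 week 19 values lay below both week 15 values. In that comparison 13.6% of the probes passed, 6.92% as lower, and 23% had every week 19 value below both week 15 values, so the call is one among many. It rested on 2 week 15 arrays, of which leaving out the first gave an adjusted p = 0.158 and the second an adjusted p = 0.0808, with log2 changes of -1.98 and -2.02 (limma). Apart from omissions of single arrays, it passed under 3 of 7 other settings that used all arrays of both ages. Without week 19 replicates 2 or 3 it did not pass either (adjusted p = 0.063 and 0.0697, limma). Within scan days 1 and 2 the change was -1.32 and -2.21, and within the fourth run of array codes it was -3.10, each with 1 week 15 array, too few to read a test from.

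No change of Aoc3 was detected at week 15 against week 10 or at week 22 against week 19. The first difference was 0.46 ± 0.52 (limma adjusted p = 0.714), with a 95% interval from -0.67 to 1.58, wide enough to leave a sizeable rise or fall undetected. Without the 3 hair keratin arrays it was -0.05. It was 0.57 on scan day 1, 0.09 on scan day 2 and 0.47 in the fourth run of array codes. At week 15 against week 10, 0.0335% of the probes passed.

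The difference between weeks 22 and 19 was 0.08 ± 0.44 (limma adjusted p = 0.983), with an interval from -0.87 to 1.03, and without week 22 replicates 3 and 4 it was 0.74 (limma adjusted p = 0.509). It was 0.20 on scan day 1, 0.04 on scan day 2, 0.37 in run 3 and 0.53 in run 4. Of all kept probes 0 passed in this comparison (0%), with 1527 at an unadjusted p under 0.05 (limma).

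Plin3 went the other way, in small steps. Its log2 normalized signal at week 10 was 14.89, 14.85, 15.38, 15.09 and 15.24 in replicates 1 to 5, and at week 15 it was 15.50 and 15.39. At week 19 it was 15.36, 15.58, 15.33 and 15.55, and at week 22 it was 15.73, 15.73, 15.53 and 15.50. All week 22 arrays lay above all week 10 arrays, week 19 overlapped with both of them, and the 2 week 15 arrays lay just above the highest week 10 array.

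In order of the means Plin3 stood at 15.62 ± 0.13 at week 22 (SD, n = 4), 15.46 ± 0.13 at week 19 (n = 4), 15.45 ± 0.08 at week 15 (n = 2) and 15.09 ± 0.23 at week 10 (n = 5). Neighbouring means from week 15 to week 22 differed by 0.01 and 0.17 on the log2 scale. Raw signals ran from 22.9 to 46.6 k at week 10, from 30 to 58.5 k at week 19 and from 48.9 to 82.7 k at week 22, with 31 and 42.2 k at week 15. By rank of brightness on its own array Plin3 moved from between 3060 and 4038 at week 10 to between 2532 and 2884 at week 22.

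Against week 10, Plin3 was 1.45-fold higher at week 22 (log2 difference 0.53 ± 0.15, SE), the comparison for which it was chosen, and 1.29-fold higher at week 19 (0.37 ± 0.15). Of all kept probes 7.78% passed as higher at week 22 (limma) and 10% had every week 22 value above every week 10 value. Within scan days 1 and 2 the week 22 difference was 0.68 and 0.34 and the week 19 difference 0.31 and 0.25. On scan day 1 week 10 includes the 3 hair keratin arrays, and each older age has 1 array. On scan day 2 week 10 has 1 array, without hair keratin signal, so day and signal cannot be told apart. Within runs 3 and 4 of array codes the differences were 0.57 and 0.47 at week 22 and 0.40 and 0.29 at week 19. Both runs hold hair keratin arrays at week 10.

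The 3 hair keratin arrays gave the 3 lowest Plin3 values of the series, 14.85, 14.89 and 15.09. With them left out, the difference from week 10 was 0.31 ± 0.17 at week 22 and 0.14 ± 0.17 at week 19, against the remaining 2 animals at 15.38 and 15.24. Normalization mattered as well: after centring of arrays on their medians the week 22 difference was 0.79, where the median difference over all kept probes was 0.14. Relative to that median it was 0.65.

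The comparisons outside the choice showed no detectable change of Plin3. At week 15 against week 10 the difference was 0.36 ± 0.18 (limma adjusted p = 0.459), with a 95% interval from -0.04 to 0.75, and without the hair keratin arrays it was 0.14. Both week 15 values lay above all week 10 values, as for 7.11% of all kept probes. On scan day 1 it was 0.45, on scan day 2 0.15 and in run 4 0.35. The change from week 15 to week 19 was 0.01 ± 0.19 (limma adjusted p = 0.98), with an interval from -0.40 to 0.42. On scan day 1 this change was -0.14, on scan day 2 0.10 and in run 4 -0.06. From week 19 to week 22 the difference was 0.17 ± 0.16 (limma adjusted p = 0.877), with an interval from -0.17 to 0.50. By scan day this difference was 0.37 and 0.10, and by run 0.16 in run 3 and 0.18 in run 4.

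**Figure D2:**
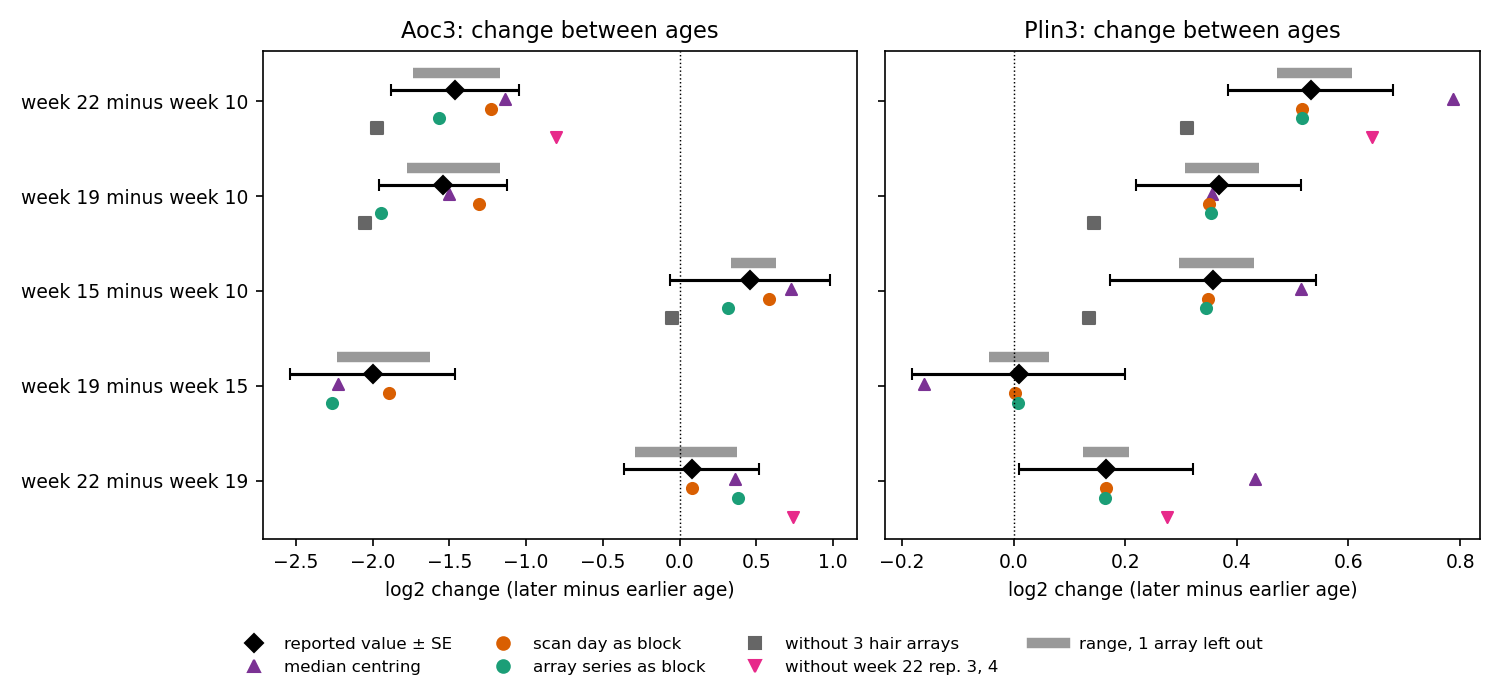
Log2 change of Aoc3 and Plin3 (horizontal axes, each with its own range) for 5 pairs of ages, with the reported value and its SE as black diamonds, other settings as coloured marks and grey bars for the range with 1 array left out. Aoc3 stays below 0 for weeks 22 and 19 against week 10 and for week 19 against week 15 in the settings plotted, and Plin3 against week 10 lies nearest to 0 without the 3 hair keratin arrays.

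The 2 genes parted between ages and tended to vary together within them. The change of Aoc3 minus that of Plin3, taken on the same arrays, was -2.0 on the log2 scale at week 22 against week 10, and -1.93 without normalization between arrays. It was -1.91 and -1.86 at week 19 against week 10, but 0.10 and 0.21 at week 15 against week 10. Over all 15 arrays the correlation of the 2 genes was -0.27, and with the mean of each age removed it was 0.67. Without the 3 hair keratin arrays these values were -0.21 and 0.64 over 12 arrays. They are descriptions over arrays that share scan days, runs of array codes and a common normalization.

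Within ages the order of the arrays was alike in part. At week 10 the 3 arrays with hair keratin signal were lowest for both genes, and replicate 3 was highest for both. At week 15 replicate 1 was above replicate 2 for both, at 20.26 and 20.22 for Aoc3 and 15.50 and 15.39 for Plin3. At week 22 replicates 1 and 2 were above replicates 3 and 4 for both genes. At week 19 replicate 3 was lowest for both, while replicate 1 was highest for Aoc3 and next to lowest for Plin3. Week 22 replicates 3 and 4 and week 19 replicate 3 are the run 4 arrays of their ages. Run and animal cannot be told apart there.

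**Figure D3:**
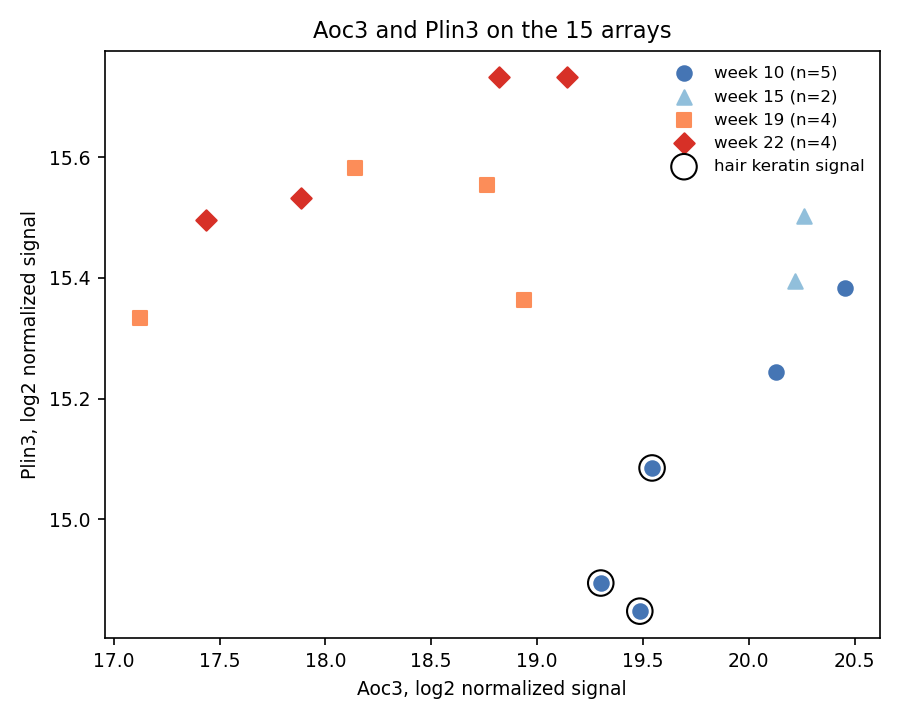
Log2 normalized signal of Plin3 (vertical axis) against that of Aoc3 (horizontal axis), 1 mark per array with its age, and circles around the 3 week 10 arrays with hair keratin signal. The older glands lie at the left with Aoc3 at 19.14 or below, and the circled arrays lie lowest, with Plin3 at 15.09 or below.

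Genes of other cell types moved across the same ages, and their part in the values of Aoc3 and Plin3 was not tested. The lists were drawn up with earlier results of these data known, so counts of passing genes in them are descriptions. Of the 10 milk protein genes listed, made by luminal epithelium, 4 were named. Their summed normalized signal ranged from 2.70 to 9.19 k at week 10 and was 3.24 and 6.64 k at week 15. It ranged from 22.5 to 379.8 k at week 19 and from 95.2 to 524 k at week 22, clear of both younger ages. From week 15 to week 19, the step at which Aoc3 fell, 2 of the 4 rose and 2 did not pass, with a median log2 change of 3.0, beside -0.06 over all kept probes, of which 6.66% passed as higher (limma). The casein gene Csn1s2b was above background on 7 arrays and Wap, the whey acidic protein gene, on 6. Csn2, 1 of the 2 that rose, was above background on 9 arrays, 1 of them at week 10 and 0 at week 15.

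Epithelial genes that are not milk proteins were few. They were listed with earlier results of these data known, so their changes are given as descriptions without a test. Krt23, a keratin of epithelial cells and the only named gene of 15 luminal genes, rose from week 15 to week 19 by 2.30 ± 0.58 (log2 change, SE). Its level was 14.28 ± 1.11 at week 10 (n = 5), 13.05 ± 0.49 at week 15 (n = 2), 15.35 ± 0.20 at week 19 (n = 4) and 15.61 ± 0.35 at week 22 (n = 4). Lgals7, known from stratified and basal epithelium and the only named gene of 7 basal genes, changed by -0.03 over the same step. Krt18 and Erbb2 were not analysed here.

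Of 16 genes listed for leukocytes and chemokines, 5 were named: Lst1, Bcl2a1b, Tnfsf13 and the chemokine genes Ccl19 and Ccl21a. Their summed normalized signal ranged from 42.5 to 68.8 k at week 10 and was 59.7 and 224 k at week 15. The sum ranged from 370.0 to 552.6 k at week 19 and from 123 to 277 k at week 22. Ccl21a and Ccl19 were the brightest at week 19, with log2 means of 18.08 and 16.30. They weigh most in the sum there, so it is not a measure of leukocytes. From week 19 to week 22 these chemokine genes differed by -2.50 and -2.74, and Lst1, Tnfsf13 and Bcl2a1b by 0.003, 0.0045 and -0.24. No kept probe passed in that comparison (limma). From week 15 to week 19, 4 of the 5 rose and 1 did not pass, with a median log2 change of 1.35, beside the same -0.06 and 6.66% over all kept probes. These genes, too, were listed with earlier results known, so the count is a description and not a test. The other lists (brown fat, endothelium, vessel smooth muscle, fibroblasts, cell cycle and skeletal muscle among them) had no named gene, so the vessel wall, the other place where Aoc3 is abundant, has no marker here.

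Among the other 205 named genes kept, those whose pattern over the 15 arrays was most like that of Aoc3 were 2700081O15Rik (r = 0.97), Lgals1 (0.96), Nupr1l (0.95) and Sowahc (0.93). Lgals1 encodes galectin 1, a lectin abundant in stroma. All 4 stood higher in weeks 10 and 15 than in weeks 19 and 22: Lgals1 had 19.29 ± 0.41 and 19.52 ± 0.37 in the younger groups and 18.47 ± 0.27 and 18.54 ± 0.47 in the older ones (n = 5, 2, 4 and 4). With the mean of each age removed these 4 correlations were 0.921, 0.885, 0.834 and 0.827. The most opposite genes were Tceal9 (-0.91), Tnfsf13 (-0.88), the gene of a B cell survival factor, the kinase gene Tnk1 (-0.88) and the casein gene Csn1s2a (-0.87). Of all 20865 other kept probes, 612 correlated with Aoc3 at 0.9 or above and 243 at -0.9 or below, so its course was shared by many probes without a name.

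Plin3 had fewer companions. The named genes most like it were C130026I21Rik (r = 0.86), Trim34a (0.70), Nat8f2 (0.69) and Bcl2a1b (0.66), an anti-apoptotic gene of leukocytes, and 6 of all other kept probes correlated with it at 0.9 or above. With the mean of each age removed the 4 correlations were 0.673, 0.582, -0.109 and -0.103, so Nat8f2 and Bcl2a1b were not like Plin3 within ages. Nat8f2 was above background on 7 arrays. The most opposite were the hair genes Krt25 (-0.85), Krtap6-1 (-0.85) and Krtap4-7 (-0.83), with Prr9 (-0.845). Without the 3 hair keratin arrays the correlations with these 4 genes were -0.12, -0.20, 0.11 and 0.01, in that order, over 12 arrays. For C130026I21Rik the value without those arrays was 0.65 and for Trim34a 0.37. The same omission left the 4 genes most like Aoc3 between 0.94 and 0.97.

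**Figure D4:**
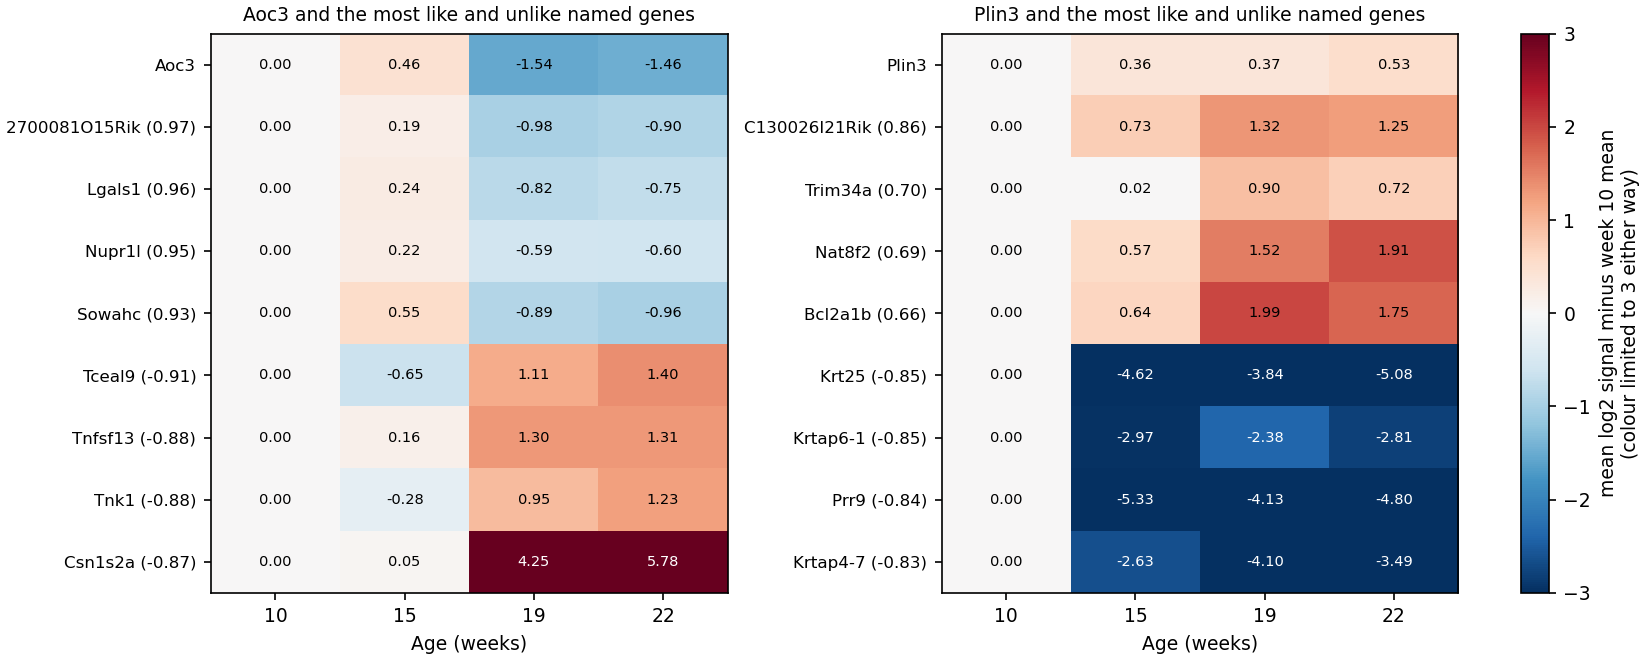
Mean log2 normalized signal of each age minus that of week 10 (colour and printed value) for Aoc3, Plin3 and the 4 named genes most like and 4 most opposite to each, with the correlation over 15 arrays in brackets. The genes like Aoc3 fall together at weeks 19 and 22, while the hair genes opposite to Plin3 have their highest mean at week 10. That mean hides a wide spread between arrays: Krt25 was above background on 3 of the 5 week 10 arrays, with an SD of 5.10.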

How the data were processed

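Total RNA was labelled with digoxigenin and hybridised to single-colour chemiluminescent AB1700 arrays, per the labels' protocols. Per the file headers, each deposited array file lists a signal intensity, its SD (also an intensity), a signal-to-noise score, a CV and a flag for every probe. The treatment of background is not stated in the headers or labels. The authors' deposited value table holds log2 values that rank probes as the scanner signals do. Its columns share 1 distribution, as after quantile normalization, and any offset added before the log is unknown. It served as an alternative.

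Signals were taken to log2 and quantile normalized, leaving out 303 control spots. Above background meant a signal at least 3 times its noise with a flag under 5000. The 20867 probes meeting this on 50% or more of the arrays at any age were kept. Median signals ran from 650.2 to 1626 and between 46.1% and 53.9% of probes were above background. The number of arrays limits the precision. limma 3.58.1 (R 4.3.3, lmFit and eBayes, two-sided, tested on simulated data) was fitted once over all arrays with 4 ages. P-values were adjusted after Benjamini-Hochberg over all kept probes at 0.05, and the 2 week 15 arrays are assumed to vary like the others.

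Names came from the RefSeq gene table (assembly GRCm38.p6), by RefSeq accession with the version removed or by BC symbol. This gave a name to 317 probes (311 genes), and the brightest probe stood for a gene. Genes named were the 2 members, listed genes, and the 4 named genes with the highest and lowest Pearson correlation with each member. The members and lists were chosen with earlier results of these data known. Replicate numbers follow the order of deposit. Scan day comes from the file headers, and the 4 runs of array codes from the sample titles.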

Additional observations from a re-analysis of the deposited data

How the results depend on the processing

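The alternatives were median centring, the authors' table, no filter, scan day or array code run as a block, array weights, only the 2 ages compared, values within a scan day or run, and each array left out in turn. Leaving out week 10 replicates 1, 2 and 4, or week 22 replicates 3 and 4, was added with the data known. Dropping the filter, fitting only the 2 ages or omitting an array of another age cannot change a difference, only its estimated spread and test. No paired analysis was possible because each animal gave 1 array at 1 age. For Aoc3, weeks 22 and 19 against week 10 kept their sign under all 28 and 27 alternatives, including those that cannot change the difference. With 1 array left out they ran from -1.74 to -1.17 and from -1.77 to -1.17. Within scan day 1 they were -0.55 and -0.76, and within run 4 week 19 against week 10 was -2.62. Aoc3 at week 19 against week 15 kept its sign under all 25 alternatives, with omissions from -2.23 to -1.63. Omissions of week 10 or week 22 arrays left the change at -2.0 and passed (limma adjusted p from 0.0243 to 0.0417). Of the week 19 omissions it passed without replicates 1 or 4 (limma adjusted p = 0.0322 and 0.0332). Without replicates 2 or 3 it did not (limma adjusted p = 0.063 and 0.0697). Without either week 15 array it was -1.98 or -2.02, with too few arrays left to read a test from. It did not pass without the filter (-2.0, adjusted p = 0.0517), with run as a block (-2.26, 0.052), with array weights (-2.01, 0.0703), or with only the 2 ages (-2.0, 0.0677). Within scan days 1 and 2 and run 4 it was -1.32, -2.21 and -3.10, each with 1 week 15 array, too few to read a test from. Small differences turned their sign: Aoc3 at week 15 against week 10 without the hair keratin arrays (-0.0507), and Aoc3 at week 22 against week 19 with array weights (-0.30) and over omissions (from -0.29 to 0.37). Plin3 at week 19 against week 15 turned with median centring (-0.16), within scan day 1 (-0.14), within run 4 (-0.0608) and over omissions (from -0.0445 to 0.0636). Plin3 at week 22 against week 10 was 0.79 with median centring, 0.34 within scan day 2 and 0.31 without the hair keratin arrays, and at week 19 against week 10 it was 0.14 without them. The cause of these shifts was not tested. Median centring moved the median difference of all kept probes from -0.01 to 0.14 at week 22 against week 10, from 0.06 to 0.14 at week 15 against week 10, from -0.06 to -0.12 at week 19 against week 15 and from 0.04 to 0.19 at week 22 against week 19. Counts of passing probes moved by over 1.5 times: at week 22 against week 10 from 2495 to between 1211 and 2657 with 1 array left out to 743 without week 22 replicates 3 and 4 and to 5158 with array weights, at week 19 against week 10 from 2612 to between 1415 and 2752 and to 4240, at week 19 against week 15 from 2832 to between 521 and 3570 and, with run as a block, to 900, at week 15 against week 10 from 7 to between 3 and 943, and at week 22 against week 19 from 0 to between 0 and 13, and to 72 without week 22 replicates 3 and 4.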

Other observations

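Named genes that lie near the members were measured as well, among the 10 protein-coding genes on either side in the RefSeq table, and were chosen after their values were seen. Near Aoc3 on chromosome 11 these were Psme3, which encodes a proteasome activator, Coa3, a mitochondrial assembly factor, the kinase gene Wnk4 and Vps25, an endosomal sorting gene. Each was above background on 15 of 15 arrays, and none of the 4 passed in any of the 5 comparisons (limma), in which between 0% and 13.6% of all kept probes passed, so that 0 of 4 lies near the share over all probes. From week 15 to week 19, where Aoc3 fell 4.00-fold, they changed by -0.20, -0.21, 0.39 and 0.47 (adjusted p = 0.566, 0.462, 0.282 and 0.259, limma).

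Near Plin3 on chromosome 17 the named genes were the dipeptidyl peptidase gene Dpp9, Mydgf, which encodes a secreted growth factor, and Tnfaip8l1. At week 22 against week 10, where Plin3 was higher by 0.53, they differed by -0.51, 0.19 and 0.05 (adjusted p = 0.0364, 0.752 and 0.922, limma). Dpp9 passed as lower there, as did 4.18% of all kept probes, and it passed in no other comparison (limma).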
